A study of Mus musculus with 20 samples.

Results

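The dose series described here consisted of the 10 mice that received protons, 1 mouse at each of 0, 5, 10, 25, 50, 75, 100, 125, 150 and 200 cGy, out of the 20 mice of the series. The other 10 mice received gamma rays and were not used. A gene was taken when its mean read count over the 10 proton mice was 5 or more, which 13212 of the 21078 genes in the table met. Each of these genes was tested for a trend of its count with dose within the proton mice, and the shape, size and order of the responses were then described with and without the mouse at 75 cGy.

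The animals were male wildtype C57BL/6 mice, adult and 10 to 12 week of age. They were restrained awake and received the dose over the whole body, and the sham mouse at 0 cGy was restrained in the same way at the proton source without exposure. Doses were given in randomised order. The thoracic aorta was taken 4 hours later, and polyA-selected RNA of the whole tissue was sequenced with strand kept. Because each dose was represented by 1 mouse, no dose had a replicate, and every standard error below measures how far the mice scattered around a fitted line. A feature of an individual mouse and the effect of its dose cannot be told apart at that dose.

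The transcription factor p53 is held at a low level by the ubiquitin ligase Mdm2 and is stabilised when kinases such as Atm sense broken DNA. It then binds a sequence of paired half-sites near its target genes and raises their transcription. Its targets include inhibitors of the cell cycle such as Cdkn1a, factors of apoptosis such as Bax, enzymes that limit oxidative damage, and its own inhibitors, among them Mdm2.

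After the resampling that the authors applied, the libraries held between 6051657 and 6057967 counts, so that depth was almost equal. Markers of the labelled tissue were present in every mouse. Myh11, the heavy chain of smooth muscle myosin, had between 34914 and 75740 counts, and the endothelial gene Pecam1 between 1298 and 4146. Tissue from outside the aortic wall was most abundant in the mouse at 75 cGy. There, 20 fat cell markers summed to 27200 CPM (counts scaled to a common library total) against 2370 to 8090 in the other 9 mice, and 15 brown fat markers to 3190 against 393 to 1010. The same mouse carried heart muscle transcripts. Its 18 skeletal and heart muscle markers summed to 3250 CPM against 29.9 to 87.4 in the others, with 6721 counts of the cardiac myosin gene Myh6 where no other mouse exceeded 105. Its 23 smooth muscle genes summed to 43100 CPM, below the 72200 to 85200 of the others. In whole tissue, fewer cells of a type and less RNA per cell cannot be told apart.

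Markers of blood and of lining cells also differed between mice. The beta globin gene Hbb-b1 had 97 counts at 10 cGy, 124 at 25 cGy and 4320 at 50 cGy, and 20 endothelial genes summed to 807 CPM at 100 cGy and 1940 at 125 cGy. A further feature set the mice at 150 and 200 cGy apart. Over 9760 genes, the deviation of a library from the average was correlated with the GC content of the transcript at -0.407 in the 150 cGy mouse and -0.342 in the 200 cGy mouse, while the other 8 mice lay between -0.023 and 0.247. The correlation with transcript length was 0.228 and 0.317 in these mice and between -0.202 and 0.038 in the others. The main counts and the gene lists whose direction turned are given with and without these 3 mice.

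**Figure D1:**
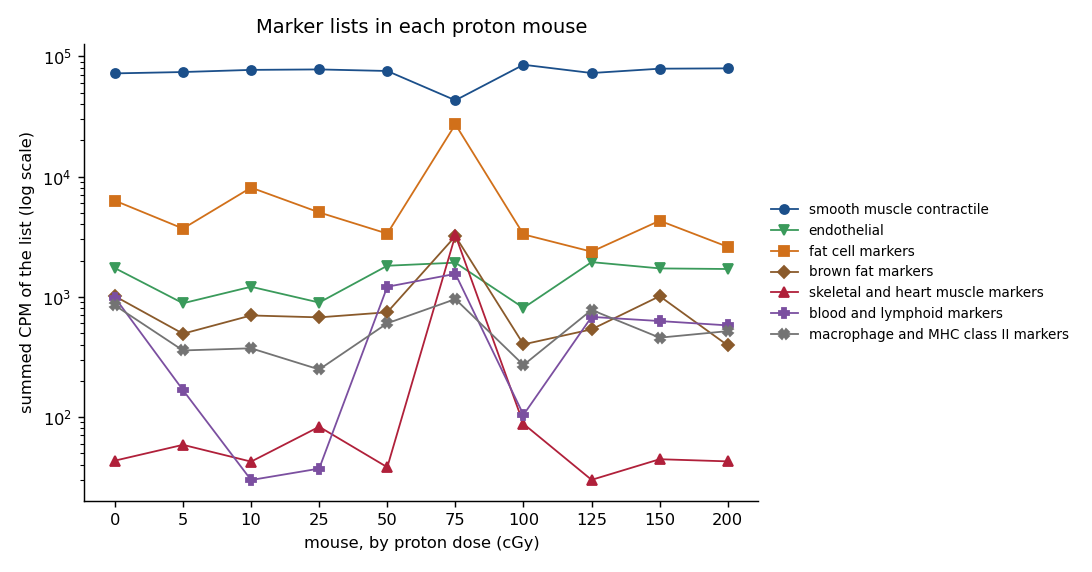
Summed CPM of 7 marker lists (log scale) in each of the 10 proton mice, ordered by dose in cGy, with a line for each list. The mouse at 75 cGy had the highest fat cell (27200), brown fat (3190) and heart muscle (3250) sums and the lowest smooth muscle sum (43100).

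With all 10 mice, 32 genes rose with proton dose and 1 fell in edgeR's quasi-likelihood test at an adjusted p of 0.1, which is 0.242% and 0.00757% of the genes tested. Of the 32 risers, 17 belonged to 5 lists of p53 genes and known p53 targets, which had 90 members tested, and no member fell. These lists were drawn up with earlier results of these data known, so their count is a description. The median slope of the 90 genes was 0.16 on the log2 scale per 100 cGy, against 0.00 for all genes tested, and 67 of the 90 had a slope above 0. The median size of the slope among the 32 risers was 0.79 per 100 cGy, and their median ratio of the 200 cGy mouse to the unexposed mouse was 2.91.

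The smallest p of all genes belonged to Aen, which encodes an exonuclease that takes part in apoptosis and lies on chromosome 7 at 86040740 to 86056095 (mm9). Its counts from 0 to 200 cGy were 133, 164, 177, 236, 252, 301, 365, 354, 458 and 621. Every step but that from 100 to 125 cGy went upward. The slope was 0.98 per 100 cGy on the log2 scale (SE 0.08) with an adjusted p of 0.00177 in edgeR.

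In the list of p53 targets in cell cycle arrest, Cdkn1a and Gtse1 had steep slopes. Cdkn1a, the inhibitor p21 of the cyclin-dependent kinases (chromosome 17, 29227924 to 29237667), had 345, 563, 546, 1027, 1039, 1380, 1639, 1809, 2977 and 2777 counts. It was above the unexposed mouse at every dose, including 5 cGy. Its slope was 1.39 (SE 0.17) with an edgeR adjusted p of 0.0134. Gtse1, expressed in the G2 and S phases and able to restrain p53, went from 7 counts at 0 cGy through 15 at 25 cGy and 28 at 75 cGy to 66 at 200 cGy, a slope of 1.41. The antiproliferative gene Btg2 behaved differently, with 487, 347, 335, 413, 479, 383, 532, 680, 795 and 1582 counts. No mouse below 100 cGy exceeded the unexposed mouse for Btg2, and the mouse at 200 cGy was well above the mouse at 150 cGy. Of the 14 cell cycle genes tested, these 3 rose, and Gadd45a, Gadd45b, Gadd45g and Sfn, damage-inducible genes of the same list, had slopes of -0.17, 0.01, 0.08 and 0.14 and did not pass the test.

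Of 19 tested p53 targets in apoptosis, 5 rose, among them Aen. Bax, which permeabilises the outer mitochondrial membrane, had 164, 202, 181, 275, 309, 283, 330, 402, 363 and 420 counts. The mouse at 25 cGy already stood above all mice of lower dose. The death receptor gene Eda2r, on the X chromosome, had 13, 24, 25, 36, 61, 88, 58, 81, 152 and 181 counts and a slope of 1.58 (SE 0.20). Apaf1, the scaffold of the apoptosome, had 116 counts at 0 cGy, 90 to 110 from 5 to 75 cGy, and 140, 148, 162 and 217 at the 4 highest doses. Ano3, which encodes an anoctamin, was near the limit of detection with 1 to 3 counts up to 25 cGy and reached 34 counts at 150 cGy and 23 at 200 cGy, so its slope of 2.15 (SE 0.32) rests on few reads. Several well known death genes did not pass the test. The death receptor gene Fas had 508 counts at 0 cGy and 467 at 200 cGy with an edgeR adjusted p of 0.998, and Bbc3, which encodes the BH3-only protein Puma, had 20, 41, 22, 36, 52, 39, 44, 64, 27 and 59 counts and an edgeR adjusted p of 0.54.

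Among the p53 feedback genes, 4 of 18 rose. Mdm2, the ligase that degrades p53, had 376, 377, 400, 442, 455, 455, 473, 497, 580 and 686 counts. No mouse stood below a mouse of lower dose, although the slope was only 0.39 (SE 0.05). Cyclin G1, encoded by Ccng1 (chromosome 11, 40562054 to 40568813), had 704, 701, 784, 883, 1031, 1863, 1213, 1502, 2191 and 2516 counts. For Ccng1 the 75 cGy mouse lay above the mice at 100 and 125 cGy, and the standard error of its slope of 0.95 was 0.12 with this mouse and 0.06 without it. Trp53inp1, a stress protein that binds p53, went from 526 counts at 0 cGy to 2177 at 150 cGy and 1783 at 200 cGy. The gene of p53 itself, Trp53, had between 202 and 332 counts, and an edgeR adjusted p of 0.527, so no change of its RNA was called.

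Of 25 tested p53 targets in metabolism and stress, 4 rose. Ephx1, the microsomal epoxide hydrolase (chromosome 1, 182906286 to 182951035), had 885, 954, 1022, 1295, 1576, 1426, 1837, 2387, 2316 and 2531 counts and a slope of 0.79 (SE 0.09). Its counts at 0, 5 and 10 cGy were all below those of every mouse at 25 cGy or more. Slc19a2, a thiamine transporter, had 51, 55, 65, 83, 95, 123, 100, 119, 135 and 190 counts. Dcxr, a carbonyl reductase, reached 233 counts at 125 cGy from 95 at 0 cGy and then 214 at 200 cGy, so its rise was complete before the highest doses. Sesn2, which restrains mTORC1 under stress, had 50, 60, 43, 77, 87, 132, 86, 142, 124 and 149 counts and an adjusted p of 0.0986, close to the threshold. In the list of p53 targets in DNA repair, 1 of 14 rose, the small ribosomal protein gene Rps27l, with 324 counts at 0 cGy and 559 at 125 cGy. Ddb2, Xpc and Pcna, genes of nucleotide excision repair and DNA replication, had slopes of -0.02, 0.00 and 0.02.

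**Figure D2:**
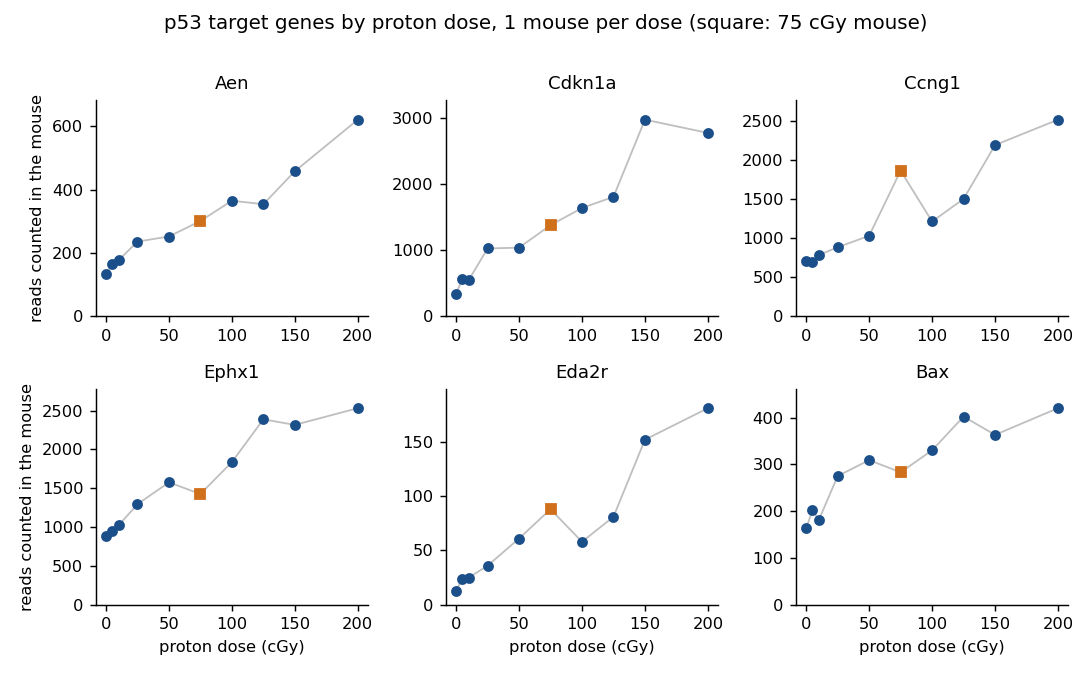
Reads counted (y axis, linear from 0) in each mouse against proton dose in cGy for Aen, Cdkn1a, Ccng1, Ephx1, Eda2r and Bax, with circles for 9 mice and an orange square for the mouse at 75 cGy. Each gene was higher in every mouse at 25 cGy and above than in the mice at 0, 5 and 10 cGy, and the square lies above its neighbours for Ccng1 and Eda2r.

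The p53 response element was searched in the genome within 3000 bases of the annotated start of each gene. The search took the p53 response element consensus of a pair of 10-base half-sites with no bases between them, required the 4 central bases of each half-site to match, and allowed up to 2 mismatches elsewhere. The consensus reads the same on both strands. Of all genes tested, 3.88% held such a sequence, and of the 32 risers 7 did, 4 of them in the p53 lists and 3 outside. With up to 1 mismatch the values were 0.802% of all genes and 5 of the 32. Of the members of the p53 lists that did not rise even without the 75 cGy mouse, 8 of 65 held it. Printed are matches with up to 1 mismatch beside the risers Cdkn1a, Gtse1, Ccng1, Rps27l and Csnk1g1, beside Gdf15, which rose without the 75 cGy mouse, and beside Zmat3, a member of the p53 lists that was not called, as a contrast. Gm16197 and Bloc1s2, also members that were not called, held matches with 1 mismatch that are not printed. The sequences were read from mm9 on the strand of the gene with 5 bases to either side. Capitals mark the match to the consensus.

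Cdkn1a: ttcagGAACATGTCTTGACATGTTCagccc
Gtse1: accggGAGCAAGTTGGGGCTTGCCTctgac
Ccng1: ccggaACGCAAGCCCGGGCTAGTCTgcgcc
Rps27l: atggcGGGCTTGTTGAGACTTGTCCgggcg
Gdf15: aggggTGACTTGCCTGAACTTGCCTtttct
Csnk1g1: agatgAGACATGTTTAGGCAAGCCTttttc
Zmat3: gtgagAAACAAGCCCAGGCATGTCTtggga

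The Cdkn1a sequence (chr17:29227873-29227892) lay 41 bases before the annotated start of the gene, outside it. Those of Ccng1 (chr11:40568438-40568457) and Rps27l (chr9:66794103-66794122) lay in introns 365 and 220 bases after the start. The sequence of Gtse1 (chr15:85690375-85690394) crossed an exon edge 248 bases after the start, and that of Gdf15 (chr8:73155865-73155884) lay in an exon 480 bases after it. These 5 had 1 mismatch each. Csnk1g1 (chr9:65757831-65757850, intron), a casein kinase gene outside the p53 lists, and Zmat3 (chr3:32263253-32263272, intron), a p53 target that binds RNA, matched without mismatch. Csnk1g1 was among the 32 risers, whereas Zmat3 went from 200 counts at 0 cGy to 287 at 200 cGy with a slope of 0.25 and an edgeR adjusted p of 0.277. The p53 lists hold known targets, so the share among them is a description. A match describes the letters and is not a bound site, and for genes without one, such as Aen, Eda2r and Bax, only this window and this form were searched.

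Outside the p53 lists, 15 genes rose with all 10 mice. Several followed dose from the lower range. The gene 9030617O03Rik had 54, 50, 66, 106, 99, 221, 136, 194, 251 and 255 counts. Commd3, of the copper metabolism domain family, had 371, 433, 396, 448, 481, 586, 545, 565, 657 and 655 counts. Both were raised at 25 cGy and above relative to the 3 lowest doses. Igf2r, the receptor that carries lysosomal enzymes, had 534 to 688 counts up to 100 cGy, 885 at 125 cGy, and 1193 and 1157 at 150 and 200 cGy. The remaining members included Atm and Rnf169, which take part in the signalling of DNA breaks. Atm had 30 to 51 counts up to 125 cGy, then 71 and 88, and its edgeR adjusted p of 0.0993 was close to the threshold. Rnf169 had 162 to 220 counts up to 125 cGy, then 309 and 323.

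Leaving out the mouse at 75 cGy raised the number of called genes to 265 rising and 75 falling, 2.01% and 0.568% of the genes tested. All 32 risers and the 1 falling gene stayed called. The median standard error of a slope fell from 0.116 to 0.093, and 84.9% of the genes had a smaller error without this mouse. For the p53 lists the number that rose went from 17 to 25, the added 8 being Mdm4, Phlda3, Ckap2, Zfp365, Ei24, Polk, Gdf15 and Abhd4. Phlda3, which inhibits the kinase Akt, differed strongly between the fits. It had 410, 409, 414, 392 and 419 counts from 0 to 50 cGy, 1531 at 75 cGy, and 506, 546, 674 and 763 from 100 to 200 cGy. Its slope was 0.48 in both fits, with an adjusted p of 0.663 with the 75 cGy mouse and 0.00265 without it. Gdf15, a secreted stress cytokine, had 3, 9, 2, 10, 25, 25, 23, 31, 32 and 59 counts and adjusted p values of 0.112 and 0.0243.

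Other mice also moved the number of calls. Without the mouse at 125 cGy, 158 genes rose and 16 fell, while without the mouse at 200 cGy 6 rose. Leaving out any of the mice at 0, 5, 10 or 150 cGy gave between 9 and 15 risers, and leaving out those at 25, 50 or 100 cGy gave between 24 and 29. With a brown fat score as a covariate and all 10 mice, 95 genes rose and 31 fell.

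**Figure D3:**
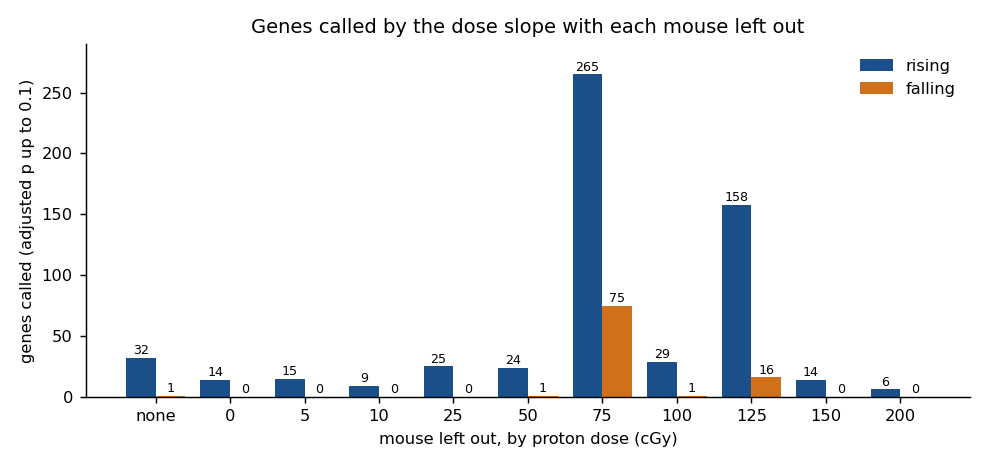
Number of genes called rising and falling with dose (edgeR, adjusted p up to 0.1) with all mice and with each mouse left out in turn, labelled by the dose of the mouse left out in cGy. The bars reach 265 rising and 75 falling without the 75 cGy mouse and 158 and 16 without the 125 cGy mouse, against 32 and 1 with all mice.

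The 265 genes that rose without the 75 cGy mouse were divided by whether a trend was present below 150 cGy. When the fit was limited to 0 to 125 cGy, still without the 75 cGy mouse, 60 of them had an upward slope at an unadjusted p under 0.05, a level that 3.29% of all genes tested met in this direction, and 205 did not. The former 60 held 23 genes of the p53 lists and the latter 205 held 2, Mdm4 and Polk. Among the 60, the median ratio to the unexposed mouse was 1.21 at 25 cGy, 1.38 at 100 cGy, 1.48 at 125 cGy and 1.88 at 200 cGy. Among the 205, it stayed between 0.978 and 1.11 from 5 to 125 cGy outside the 75 cGy mouse, and was 1.54 at 150 cGy and 1.59 at 200 cGy. These groups were set by a threshold on the same counts that are described, so the contrast is a description, and the groups were mixed in shape. On the log2 scale, the square of dose was the best form for 18 of the 60 and 187 of the 205. Over all 13212 genes tested it was best for 7306. Onset lay at 150 or 200 cGy in 116 of the 205 and, counting either direction, in 6015 of the 13212. The 205 were chosen for lacking a trend up to 125 cGy, so a late onset was partly built in.

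The dose at which each gene passed the middle of its rise was read from a never-decreasing curve fitted to log2 of the normalised count plus 1. For the 17 p53 genes that rose with all mice its median was 58.1 cGy (quartiles 42.6 and 76.7), and for the 15 other risers it was 133 cGy (quartiles 86.2 and 134). The middle is that of the rise in log2. For a gene with a large ratio, the middle of its rise in counts lies at a higher dose. The median ratio of the 200 cGy mouse to the unexposed mouse was 3.49 for the 17 p53 risers and 2.91 for all 32 risers. The 32 include those 17, so the median ratio of the 15 others was lower still. Bax passed the middle earliest of the risers, at 22.9 cGy, with a range of 20.5 to 45.3 when any 1 mouse was left out. Cdkn1a followed at 24.3 cGy, but its range of 23.9 to 70.1 overlapped those of Eda2r at 40.5 cGy (36.3 to 67.2), Ddit4l at 40.4 cGy (31.8 to 76.9) and Rps27l at 42.6 cGy (39.7 to 47.5). Aen, Ephx1 and Ccng1 lay at 71.3, 76.7 and 67.7 cGy. Btg2 passed the middle latest, at 146 cGy (104 to 150), and Mdm2 and Apaf1 both at 131 cGy. The range of Bax did not overlap those of Aen, Ccng1, Mdm2, Apaf1 and Btg2, and that of Cdkn1a did not overlap those of Mdm2, Apaf1 and Btg2. Many neighbours in this order had overlapping ranges. These ranges show how far leaving out 1 mouse moved the value, and they do not measure the scatter between mice of the same dose.

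In the order of onset, 19 of the 32 risers were higher in the mouse at 25 cGy and in every mouse above it than in any of the mice at 0, 5 and 10 cGy, and 14 of these 19 were p53 genes. Over all genes tested, 162 met this description in the direction of their own slope. That count therefore also holds genes that were lower from 25 cGy on, such as Cacna1g. The mean log2 rise at 100 and 125 cGy was 66.3% of that at 150 and 200 cGy in the median p53 riser, and 32.6% in the median other riser. Among functions of dose, the square root of dose was the best form on the log2 scale for 12 of the 17 p53 risers. The square of dose was best on that scale for 11 of the other 15, as judged by the squared correlation. Over all 13212 genes tested, the square root was best for 1281 and the square for 7306, so the square was the commonest form in general. These forms describe log2 values, and the form of the counts themselves was not tested.

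No gene had a curved response at an adjusted p of 0.1 in the edgeR test of a quadratic term, where 1143 genes had an unadjusted p under 0.05, 555 with an upward and 588 with a downward bend. DESeq2 called 12. The 5 genes with the smallest edgeR p included Nppa, Sln and Dhrs7c, which are expressed in heart muscle and were high in the 75 cGy mouse with 2312, 765 and 53 counts against at most 4, 14 and 3 in any other mouse. The other 2 were Exoc4, a subunit of the exocyst, with 337, 310, 351, 431, 432, 526, 580, 701, 659 and 509 counts and hence a peak at 125 cGy, and Atrnl1, lowest at 75 cGy with 338 counts and highest at 200 cGy with 695. Of the p53 risers, 6 had an unadjusted p under 0.05 in the same edgeR fit. On the log2 scale of that fit, Btg2 (p = 0.00181) bent upward. Dcxr (p = 0.00283), Rps27l (p = 0.00604), Cdkn1a (p = 0.0303), Ephx1 (p = 0.0328) and Bax (p = 0.0455) bent downward on it.

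Over the 5 mice from 0 to 50 cGy, edgeR called no gene at an adjusted p of 0.1, with a smallest adjusted p of 0.997. The unadjusted p was under 0.05 for 339 genes, 143 rising and 196 falling, and DESeq2 called 2. Among the 17 p53 risers, 13 had an upward slope at an unadjusted p under 0.05 in this range. Those 17 were chosen by their rise over all 10 mice, which include these 5, so that count is a description. The smallest p was that of Ephx1, with 885, 954, 1022, 1295 and 1576 counts in these 5 mice (slope 1.64 per 100 cGy, SE 0.22). Ccng1 and Mcm6, a subunit of the replicative helicase, were also among the 5 genes with the smallest p. Mcm6 had 421, 416, 462, 525 and 617 counts up to 50 cGy but 287 at 75 cGy and between 505 and 615 above it, with a slope of 0.17 over all mice that did not pass the test. Pfkfb3, a regulator of glycolysis, had 1116, 975, 758, 593 and 496 counts over the same mice, then 2759 at 75 cGy and 432 to 849 above it. None of these passed after adjustment.

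**Figure D4:**
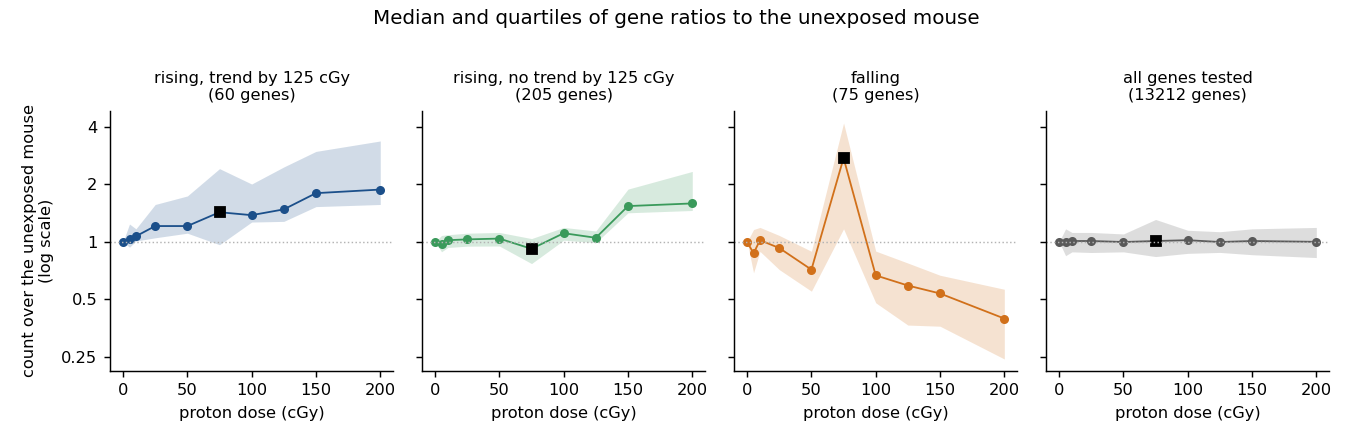
Median (line) and quartiles (band) of the ratio of each gene's normalised count to the unexposed mouse (log scale) against proton dose in cGy. Panels show 60 rising genes with a trend by 125 cGy, 205 rising genes without, 75 falling genes and all 13212 genes tested. The rising and falling genes were called without the 75 cGy mouse. The black square marks the median ratio in that mouse. The 205 genes stand at 1.05 at 125 cGy and 1.54 at 150 cGy, and the 75 falling genes at 2.75 in the 75 cGy mouse.

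Genes with their highest counts at 150 and 200 cGy are shown by Mgat5, a glycosyltransferase gene of 278.7 kb on chromosome 1 that was among the 32 risers. It had 48, 40, 39, 56, 59, 42, 53 and 59 counts up to 125 cGy and 162 and 171 at the 2 highest doses. Phf20l1, a reader of methylated lysine, had 47 to 70 counts up to 125 cGy and then 159 and 160. Uprt, a gene of pyrimidine salvage, had 4 to 12 and then 23 and 39. For each of these genes the mice at 150 and 200 cGy lay above all others.

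Similar steps occurred in genes that were called only without the 75 cGy mouse. Prkg1, the cGMP-dependent kinase that relaxes smooth muscle, and the SUMO protease Senp5 were chosen after their values were seen. Prkg1 had 12 to 25 counts up to 125 cGy and then 104 and 120, and Senp5 had 47 to 70 and then 174 and 160. Mdm4, a partner of Mdm2 in restraining p53, had 72, 105, 71, 84, 68, 74, 85 and 75 counts up to 125 cGy and then 270 and 322, so it did not follow the graded course of Mdm2. The smooth muscle gene Ppp1r12a, a subunit of myosin phosphatase, had 1167 to 2166 counts up to 125 cGy and then 3643 and 4151, with an adjusted p of 0.0861 without the 75 cGy mouse.

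The 205 genes without a trend up to 125 cGy had a median transcript length of 6255 bases and a median GC content of 46%, against 3059 bases and 50.4% for all genes tested and 3859 bases and 48.3% for the 60 genes with an earlier trend. Length and GC content are also the features with which the libraries at 150 and 200 cGy deviated. After each library was corrected for GC content and length, and without the 75 cGy mouse, 94 genes rose and 29 fell, 0.743% and 0.229% of the 12655 genes with both values. Of the 205 genes 45 stayed called, and of the 60 genes 40 did. All 32 risers of the fit to 10 mice were called in this fit, Mgat5, Phf20l1 and Uprt included, and of the p53 lists 26 genes rose. With the same correction and all 10 mice, 26 genes rose and 1 fell, and 24 of the 33 genes called without it were still called. Dose and the composition of the 150 and 200 cGy libraries cannot be told apart for genes that moved only there, since each dose had 1 mouse.

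Over 0 to 125 cGy without the 75 cGy mouse, 9 genes rose and 1 fell at an adjusted p of 0.1 in edgeR. The risers included Ephx1, Ccng1, Dcxr, Aen, Rps27l and Abhd4 of the p53 lists, with 9030617O03Rik and Exoc4. Exoc4 had the smallest p of the genes outside the lists (adjusted p = 0.00586). Sh2b2, an adaptor of insulin signalling, was the gene that fell (adjusted p = 0.0788). Polr2a, the large subunit of RNA polymerase II, also rose, with 630, 583, 666, 602 and 787 counts up to 50 cGy, 913 and 1156 at 100 and 125 cGy, and 814 and 910 at 150 and 200 cGy.

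**Figure D5:**
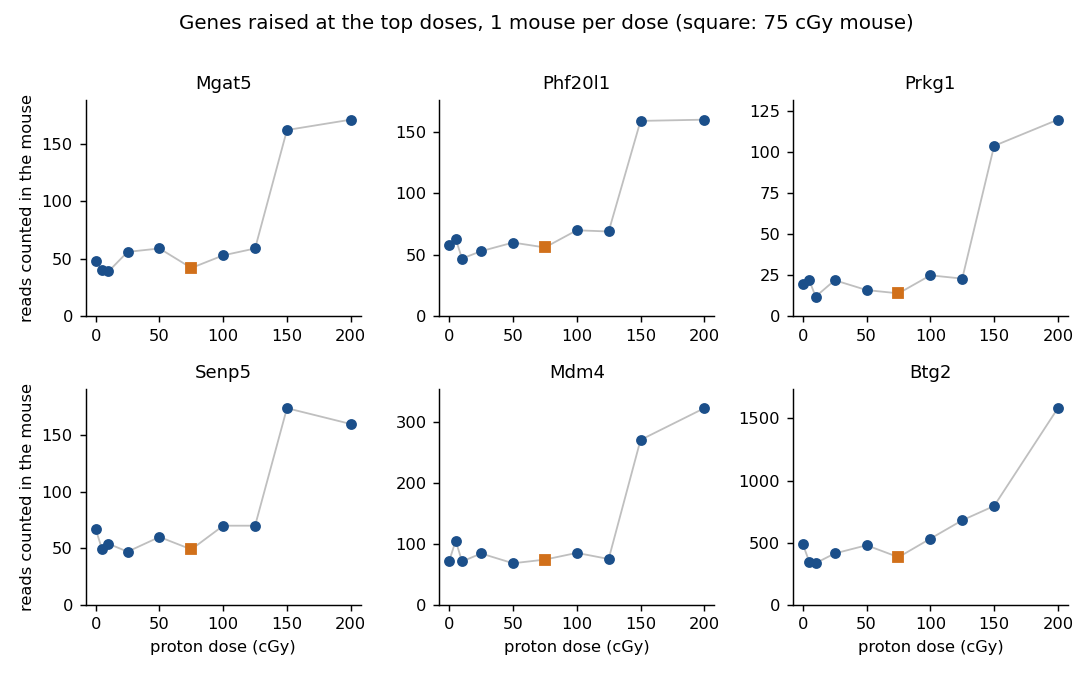
Reads counted (y axis, linear from 0) against proton dose in cGy for Mgat5, Phf20l1, Prkg1, Senp5, Mdm4 and Btg2, with circles for 9 mice and an orange square for the mouse at 75 cGy. All except Btg2 show no clear rise up to 125 cGy and at least 104 counts at 150 and 200 cGy, and Btg2 climbs from 532 counts at 100 cGy to 1582 at 200 cGy.

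Only Cacna1g, which encodes a T-type calcium channel (chromosome 11, 94269705 to 94335414), fell with all 10 mice. Its counts were 139, 106, 97, 97, 80, 84, 60, 87, 47 and 40. Every exposed mouse was below the unexposed one. The slope fell by 0.71 per 100 cGy on the log2 scale (SE 0.12) with an edgeR adjusted p of 0.0533, and the 75 cGy mouse did not stand apart for this gene. Dhrs3, a retinaldehyde reductase, had 1612, 1557, 1417, 1180, 1271, 1105, 1020, 960, 996 and 1061 counts, with edgeR adjusted p values of 0.22 with all mice and 0.0751 without the 75 cGy mouse, and every mouse at 25 cGy or more was below those at 0, 5 and 10 cGy.

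Several genes of lipid synthesis were among the 75 that fell without the 75 cGy mouse. In 56 of the 75 the excluded mouse had the highest normalised count of all 10, against 27.4% of all genes tested. Only 1 of the 75 was also called with that mouse. A falling gene called only without a mouse tends to be high in it, so this excess is partly built in. The smallest p belonged to Mlxipl, a glucose-sensing transcription factor of fat synthesis, with 457, 372, 449, 419, 251, 1983, 268, 119, 152 and 114 counts, followed by Tspan15 and Mid1ip1. Fasn, the fatty acid synthase, had 8239, 2954, 8688, 5200, 3016, 34913, 2597, 1136, 1189 and 1190 counts, and the insulin-responsive glucose transporter gene Slc2a4 had 549, 396, 564, 473, 393, 2086, 391, 292, 342 and 245. Srebf1, Acly, Thrsp and Agpat2, further genes of lipid synthesis named after their values were seen, fell as well, and Acly went from 2904 counts at 0 cGy to 903 at 200 cGy.

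The fat cell list moved with these genes across the 9 other mice. Of its 20 members 19 had a slope below 0, the median slope was -0.49 without the 75 cGy mouse, and 2 members, Fasn and Slc2a4, passed the test. The summed level of the list was 2370 to 4290 CPM in the mice from 100 to 200 cGy and 3350 to 8090 in those from 0 to 50 cGy. With the brown fat score as covariate, 10 of the 75 genes were still called falling, and Cacna1g was among those called (edgeR adjusted p = 0.0387). That fit also put the 75 cGy mouse back, and the slopes of Mlxipl and Tspan15 were -0.78 (SE 0.34) and -0.80 (SE 0.26) in it, against -1.04 (SE 0.13) and -1.03 (SE 0.14) without that mouse. The part of fat content in the other falls was not tested.

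Members of the remaining lists mostly did not pass the test. Of 35 tested genes of DNA damage sensing and repair, Atm (edgeR adjusted p = 0.0993) and Rnf169 (edgeR adjusted p = 0.0533) rose with all mice. Of 20 genes of the integrated stress response, which slows protein synthesis, Sesn2 rose with all mice, and the kinases Eif2ak4 and Eif2ak2 rose only when the 75 cGy mouse was left out. Eif2ak4 had 108, 116, 117, 123, 128, 127, 145, 140, 167 and 168 counts, an even but small rise with a slope of 0.31. Once GC content and length were corrected as well, only Sesn2 of these 3 genes was still called. Arhgap11a, with 8 counts at 0 cGy and 39 at 200 cGy, was the only called member of 25 tested proliferation genes, also without the 75 cGy mouse. No proliferation gene rose or fell after the same correction.

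The lists of immediate early genes (23 tested), heat shock chaperones (19), antioxidant and glutathione genes (26), interferon-stimulated genes (23), glucocorticoid-induced genes (15), translation factors (30), ribosomal proteins (37) and oxidative phosphorylation (29) had no called member in either fit by edgeR. Their median slopes lay between -0.05 and 0.17 per 100 cGy with all mice. Small medians could go with 1 direction. In both fits 36 of the 37 ribosomal protein genes had a slope above 0, and 2 of the 29 oxidative phosphorylation genes did. Over 0 to 125 cGy without the 75 cGy mouse these counts were 25 and 3. Over 0 to 125 cGy without the 75 cGy mouse several medians had the other sign. They went from 0.05 to -0.20 for the heat shock chaperones, from 0.17 to -0.12 for the glucocorticoid-induced genes and from 0.13 to -0.03 for the immediate early genes, while that of oxidative phosphorylation went from -0.05 to -0.18. Atf3, a transcription factor of early stress, had 214, 77, 153, 112, 171, 71, 120, 160, 173 and 377 counts, so the unexposed mouse exceeded all but the last. In the aortic wall, none of 23 smooth muscle genes was called with all 10 mice. Ppp1r12a passed only without the 75 cGy mouse, and no longer once GC content and length were corrected as well (adjusted p = 0.157 in edgeR). Among 28 collagen and elastic fibre genes 4 had a slope above 0 with all mice (median -0.16), but over 0 to 125 cGy without the 75 cGy mouse 19 did (median 0.12), so their direction rested on the mice at 150 and 200 cGy. Tnxb, a tenascin of the adventitia, fell without the 75 cGy mouse, with 4110 counts at 0 cGy and 2311 and 1964 at 150 and 200 cGy, and did not pass after the correction for GC content and length (adjusted p = 0.13 in edgeR). The endothelial genes Robo4 and Kdr, the TGF-beta receptor gene Tgfbr1, the clock gene Bhlhe40, the chemokine Cxcl9 and the myelin gene Mbp were each called in the fit without the 75 cGy mouse, Tgfbr1 as rising and the others as falling. Of these 6, Kdr and Mbp were still called after the correction for GC content and length. The endothelial list as a whole had 13 of 20 slopes above 0 and a median of 0.11 in the fit without the 75 cGy mouse. Robo4, Kdr, Bhlhe40, Cxcl9 and Mbp all had their highest count in the 75 cGy mouse, as the fat genes did.

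An exact permutation test of the Spearman rank correlation, which asks for order only, found 26 genes that followed dose upward at an adjusted p of 0.1, 0.197% of the genes tested, and 17 of them were among the 32 risers. It found none downward, where 723 genes had an unadjusted exact p under 0.05. Mdm2 had the highest rank correlation (0.997, exact adjusted p = 0.00728) and Aen followed at 0.988. Of the 26 genes 16 were in the p53 lists. Btg2 and Apaf1, which rose late, did not pass this test, with rank correlations of 0.77 and 0.806 and exact adjusted p values of 0.546 and 0.472. Eif2ak4 (0.976, exact adjusted p = 0.0277) and Eif2ak2 (0.952, exact adjusted p = 0.0549) passed it although their slopes did not reach the edgeR threshold with all 10 mice. Without the 75 cGy mouse 15 genes passed, 14 of them among the 26.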

How the data were processed

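The authors sequenced polyA-selected aortic RNA as stranded pairs of 100-base reads. CASAVA 1.8.1, STAR 2.5.2a and mm9 are named in the submitters' processing notes, and the study's methods state that libraries were resampled to a common depth with PORT. The deposited values are whole-number counts of sense reads per gene, and resampling removes differences in depth while adding sampling noise. Gene starts and ends were taken from a mouse annotation of the same build, and the intervals in the table were wider by 202 bases at either end. Symbols were shared by several genes in 82 cases.

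The proton columns were fitted with edgeR 4.0.16 (TMM scaling, robust quasi-likelihood test, limma 3.58.1, R 4.3.3), with dose in units of 100 cGy and Benjamini-Hochberg adjustment over all 13212 genes with a mean count of 5 or more. An adjusted p of 0.1 was the threshold. A quadratic term, a fit to 0 to 50 cGy and a one-sided exact permutation test of the rank correlation were run beside it, and DESeq2 1.42.0 was an alternative. Shapes were described on log2 of the normalised count plus 1 with Python 3.11.15. A count of 3 was taken as the detection floor, for counting error only. Scripts were tested on simulated data. With 1 mouse per dose, p-values measure the scatter of mice about the fitted dose term.

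The members and gene lists were chosen with earlier results of these data known. Named were the 15 rising and 10 falling genes with the smallest p, the 5 with the smallest p in the quadratic and in the 0 to 50 cGy test, the first 3 per direction called in only 1 of the fits with and without the 75 cGy mouse, up to 4 members per list, and any p53 list member. Other genes, among them Commd3, 9030617O03Rik, Mgat5, Phf20l1, Uprt, Csnk1g1, Polr2a, Sh2b2, Bhlhe40, Cxcl9, Kdr, Mbp, Slc2a4 and the tissue markers, were chosen after their values were seen. The fits that combine leaving out the 75 cGy mouse with a GC and length correction, with 0 to 125 cGy or with DESeq2 were added after seeing the data. Results for some genes are not reported here.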

Additional observations from a re-analysis of the deposited data

Results flagged for a closer look

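Of 47 values compared over the 10 proton mice, 7 had a highest or lowest mouse whose gap to its nearest neighbour exceeded Dixon's 95% critical share of the whole range, and in all 7 it was the mouse at 75 cGy. Chance alone flags about 1 in 20 such values, and the 7 are not independent of each other. That mouse had the highest fat cell sum (27200 CPM), brown fat sum (3190 CPM) and skeletal and heart muscle sum (3250 CPM) and the lowest smooth muscle sum (43100 CPM). It also had the most genes with a count (16949, against 16031 to 16375 in the others), the smallest share of counts in its 10 most abundant genes (5.96%) and the lowest total (6051657 counts). Its library composition and its dose cannot be told apart.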

How the results depend on the processing

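The number of rising genes (32) was 3 over 0 to 125 cGy, 135 with DESeq2, 13 with log2 of dose, 95 with the brown fat covariate, 21 at an adjusted p of 0.05 and 265 without the 75 cGy mouse. The number falling (1) was 0, 19, 0, 31, 0 and 75 in the same order, and 2 with the square root of dose. The p53 genes that rose (17) numbered 2 over 0 to 125 cGy and 11 with log2 of dose. Of the fits added after seeing the data, leaving out the 75 cGy mouse with the GC and length correction gave 94 rising, 29 falling and 26 p53 genes, with 0 to 125 cGy 9 rising and 6 p53 genes, and with DESeq2 408 rising, 183 falling and 28 p53 genes. Leaving out each mouse in turn gave 6 to 265 rising, 0 to 75 falling and 5 to 25 p53 genes, the lowest rising and p53 counts without the 200 cGy mouse. The rank test's 26 genes became 15 without the 75 cGy mouse, 0 over 0 to 125 cGy, 11 at an adjusted p of 0.05 and 1 to 15 with each mouse left out, the 1 without the mice at 0, 5 or 200 cGy. Curved responses numbered 12 with DESeq2 and 0 to 2 with each mouse left out (2 without 50 cGy), and changes over 0 to 50 cGy 2 with DESeq2 and 0 to 1 (1 without 0 cGy). The causes of these differences were not tested. Over the 33 genes called with all mice, no alternative reversed a direction, 417 gene and setting pairs kept their side of the threshold and 210 did not. Few reads limit genes such as Ano3. No paired analysis was possible because each dose had 1 mouse and no replicate number was shared.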
